A study of Mus musculus with 6 samples.

Results

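The cytosolic ribosomal protein genes were described in splenic CD8 T cells of mice, in 3 control libraries and 3 libraries of cells labelled with focused ultrasound irradiation (fus), in which sound is brought to a focus inside the body. Members were taken by gene symbol: Rpl or Rps with a number and optional letters or digits, Rplp0 to Rplp2, and Rpsa. The 10 Rps6k kinase genes and 9 symbols carrying -ps, which names pseudogenes, were left out. The rule gave 89 of the 17744 genes in the table, 54 of the large (60S) subunit series and 35 of the small (40S) series. Of these, 77 are the canonical ribosomal protein genes, 46 of the large and 31 of the small subunit. The other 12 are paralogs, retrogenes and Rps19bp1, which encodes a protein that binds Rps19 and is no part of the ribosome.

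The cells were sorted as CD45+ CD3+ CD8a+ and sequenced as bulk RNA. The labels give the controls as genotype wt with the treatment control, and for the other group they enter fus irradiation under both fields. They state no strain, age, dose, interval or batch. The libraries are called control 1 to 3 and ultrasound 1 to 3. Nothing in the labels says that they came from separate animals, so p-values measure only the spread between these samples, which may be technical.

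Ribosomal proteins and ribosomal RNA together form the ribosome, the machine that translates mRNA and is built from a small and a large subunit. Their mRNAs are among the most abundant in any cell. Many begin with a C followed by a run of pyrimidines, the 5′ terminal oligopyrimidine (TOP) motif. Through it the mTORC1 kinase and the RNA-binding protein Larp1 adjust translation and stability of these mRNAs together.

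Start-site sequences from RefSeq (GRCm38.p6, the assembly called mm10) were available for 68 members, 57 of them canonical. A pyrimidine run, which the rule does not use, was more frequent among canonical members than among all tested genes with a window. The windows below are shown for this reason. Each is 30 bases on the transcribed strand around the longest run of C and T within 50 bases of the annotated start, and capitals mark that run. A run was counted only inside those 50 bases: in Rpl26 and Rpsa it starts at the first base searched and goes on upstream in the lower-case letters, and in 7 of the 68 windows, Rpl39 among them, it ends at the last base held. The first 4 belong to members that were low in ultrasound 2 and 3, the next 4 to members high or closer to the control mean there, and the last 4 to paralog pairs. These 12 were chosen after the values were seen.
Rpl39: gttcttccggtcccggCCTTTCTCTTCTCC
Rps28: tctgtcccgaggaTTCCTgggtaccgcgtg
Rplp2: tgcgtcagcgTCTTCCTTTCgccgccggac
Rpl38: ggaagcctcgTTCTTTCCCCgttctcttcg
Rpl27: gtcatcctcgCTCCTCCCTCCacacgccgg
Rpl26: tcccaaccTCCTCTCCCCTTTCgctccgag
Rps6: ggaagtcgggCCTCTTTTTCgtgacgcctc
Rpsa: gcggaagttctcCCTTTTTgcttagcctgc
Rpl22: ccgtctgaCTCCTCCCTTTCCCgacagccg
Rpl22l1: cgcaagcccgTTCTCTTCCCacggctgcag
Rpl36a: cggctctagCCTCTCTCTTTCCgagctgct
Rpl36al: gctctgttcgTCCCTTTCCTgttcggcgcg

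The Rpl39 window lies at chrX:37085173-37085202 on the minus strand, and the Rps28 window at chr17:33824567-33824596 on the minus strand. The Rplp2 window is at chr7:141447636-141447665 and the Rpl38 window at chr11:114668568-114668597, both on the plus strand. Rpl27 (chr11:101442193-101442222), Rpl26 (chr11:68901508-68901537) and Rpsa (chr9:120127704-120127733) are on the plus strand and Rps6 (chr4:86857349-86857378) on the minus strand. Of the pairs, Rpl22 (chr4:152325679-152325708), Rpl22l1 (chr3:28805499-28805528) and Rpl36a (chrX:134585672-134585701) are on the plus strand and Rpl36al (chr12:69184020-69184049) on the minus strand. A run of at least 8 pyrimidines within 50 bases of the start was present in 80.7% of the 57 canonical members, against 31.9% of 8632 tested genes with a window. On the opposite strand the shares were 24.6% and 34.4%. The letters CTTTC occurred in the same stretch in 29 canonical members, or 50.9%, against 10.5% of the tested genes, and on the opposite strand in 10.5% and 9.31%. The letters CCGGAAG, in either strand of the whole 300-base window, were found in 40.4% of canonical members and 20.4% of tested genes. These matches describe the printed windows and are not evidence of use of a site. Rps28, with a run of 5 bases, and Rpl39, with a run of 14, show how far the run varied among members that were both low in ultrasound libraries.

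Recovered reads numbered 35024080 to 38113103 per library. Within the canonical set the count per gene and library ran from 7631 reads (Rpl36) to 144483 reads (Rpsa). The sort markers were present in every library, with Cd3e at 165 to 310 FPKM and Cd8a at 251 to 314 FPKM. FPKM is fragments scaled by gene model length and library size. Ultrasound 2 and 3 stood apart from ultrasound 1: mitochondrial genes took 2.05% to 2.70% of reads in controls, 2.19% in ultrasound 1, and 0.954% and 0.937% in ultrasound 2 and 3. The count of members past the threshold is therefore given with and without ultrasound 1. Single genes are given from all 6 libraries, and only some of them also without ultrasound 1. In bulk samples, fewer cells of a type and less RNA per cell cannot be told apart.

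Ribosomal protein genes took a smaller part of the measured transcriptome in the ultrasound libraries. Their share of summed FPKM was 27.9%, 26.1% and 27.7% in controls 1 to 3 and 24.8%, 24.3% and 23.5% in ultrasound 1 to 3. The ranges did not overlap, and the means were 27.2% ± 0.964 and 24.2% ± 0.621 (SD, n = 3 each). The share of reads was 10.2%, 9.27% and 10.2% in controls and 8.84%, 8.97% and 8.66% in ultrasound libraries. Large subunit genes went from 14.8% ± 0.462 to 13.5% ± 0.229 of summed FPKM, and small subunit genes from 12.4% ± 0.502 to 10.7% ± 0.493 (SD, n = 3 each). In ultrasound 1 the small subunit share was 11.2%, above the 10.6% and 10.3% of ultrasound 2 and 3, while the large subunit share was 13.5%, 13.7% and 13.3%. No test is given for a sum over chosen members.

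**Figure D1:**
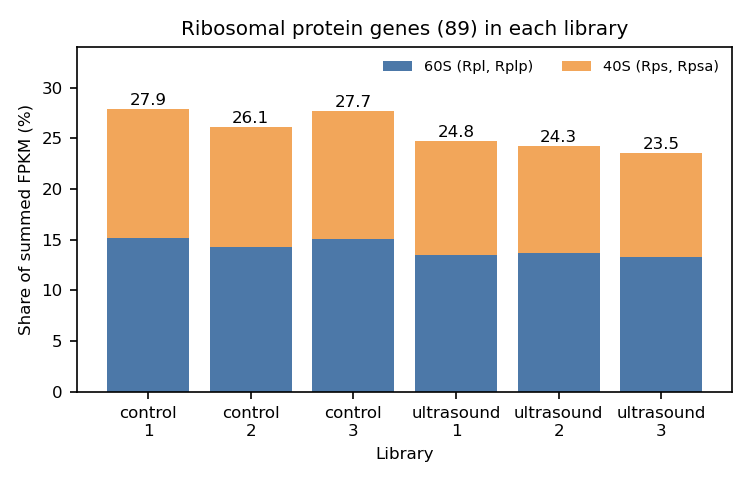
Share of summed FPKM (percent, y axis, from 0) taken by the 89 ribosomal protein genes in each library (x axis), split by colour into large and small subunit series, with the total printed above each bar. The 3 ultrasound bars stand at 24.8%, 24.3% and 23.5%, below the lowest control at 26.1%.

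The 77 canonical genes also filled most of the top of the expression ranking in both groups. Of the 100 genes with the highest FPKM, 66, 65 and 65 were canonical ribosomal protein genes in the controls and 64 in each ultrasound library. Rplp1, an acidic protein of the stalk on the large subunit, had the highest level of all members in every library, and Rps27 and Rplp0 followed it by mean level. Rpl22 was the lowest canonical member in the controls and ultrasound 1, and Rps15a in ultrasound 2 and 3. Highest and lowest canonical levels were 17.0 to 21.3 times apart within a library. Rps15a has a gene model of 5136 bases, a length worked out from the deposited FPKM and the recovered reads. Such a length lowers its FPKM relative to genes with short models.

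No single member passed the test. With limma on log2(FPKM + 1), 0 of 86 members tested had an adjusted p under 0.05, while 864 of 10655 genes passed, 8.11%. Lower values passed in 1.56% of genes and higher values in 6.55%. An unadjusted p under 0.05 was reached by 35 members, 33 lower and 2 higher in ultrasound libraries, where 8.57% of all genes were lower and 22.6% higher (31.2% in all). The members closest to the threshold were Rpl39 and Rplp1, with limma adjusted p of 0.0502 and 0.0507. With median-of-ratios size factors, scaling to the other genes or voom on recovered reads both passed, and with upper-quartile factors Rps13 passed too. In the authors' deposited table a q under 0.05 was given to 39 members with a lower value and 0 with a higher one, where 4.98% and 7.3% of all its genes had one (12.3% in all).

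The direction was shared by most members. The log2 difference was below 0 for 71 of 86 members, with a median of -0.18, against 0.09 over all genes tested. The median was -0.12 for the 46 large subunit genes and -0.22 for the 31 small subunit genes, of which 30 were below 0. All ultrasound libraries lay below all controls for 34 members, or 39.5%, where 8.96% of all genes did so, and above them for 2 members, Rps27l and Rps19bp1, where 25.9% did so. Median-of-ratios size factors moved the median of all genes by -0.11, to -0.02, and the median of the members to -0.30, with 78 of 86 members below 0. Under that scaling the genes that passed were 281 higher and 187 lower, in place of 698 and 166.

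The 3 ultrasound libraries differed in how the low values were spread over the genes. In ultrasound 1 nearly every canonical gene was slightly low: the differences from the control mean had a median of -0.16 and an SD of 0.083 over 77 genes, from -0.37 to 0.03. There, 61 of 86 tested members lay below every control and 2 above, against 23.1% and 44.6% of all genes. In ultrasound 2 and 3 the medians were similar, at -0.15 and -0.20, but the SDs were 0.338 and 0.330. The differences there ran from -1.12 to 0.60 and from -1.08 to 0.55. Over all genes tested the SDs were 0.405, 0.557 and 0.619 in ultrasound 1 to 3. In ultrasound 2, 50 members lay below and 20 above every control, against 29.6% and 53.2% of all genes. In ultrasound 3, 56 lay below and 15 above, against 34.5% and 49.6%.

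Ultrasound 2 and 3 gave nearly the same value gene by gene. Their difference had an SD of 0.057 on the log2 scale over the 77 canonical genes, smaller than the 0.089 to 0.104 between pairs of controls. The difference between ultrasound 1 and the mean of ultrasound 2 and 3 had an SD of 0.334. Over all genes tested the SD was 0.509 for that difference, 0.21 between ultrasound 2 and 3 and 0.168 to 0.283 between pairs of controls. At least 0.5 below the control mean were 0 of 86 tested members in ultrasound 1, 18 in ultrasound 2 and 19 in ultrasound 3, where 2.73%, 9.3% and 12.3% of all genes were. In both of the latter, 18 members were that low, where 918 of 10655 genes tested were. Of these members 7 were of the large subunit, 7 of the small subunit and 4 not canonical. Members at least 0.25 above the control mean in both numbered 7, where 3306 of 10655 genes tested were that high. Of these 7 members 4 were canonical, all of the large subunit. The labels name no batch, and whether ultrasound 2 and 3 share handling that ultrasound 1 did not was not tested.

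**Figure D2:**
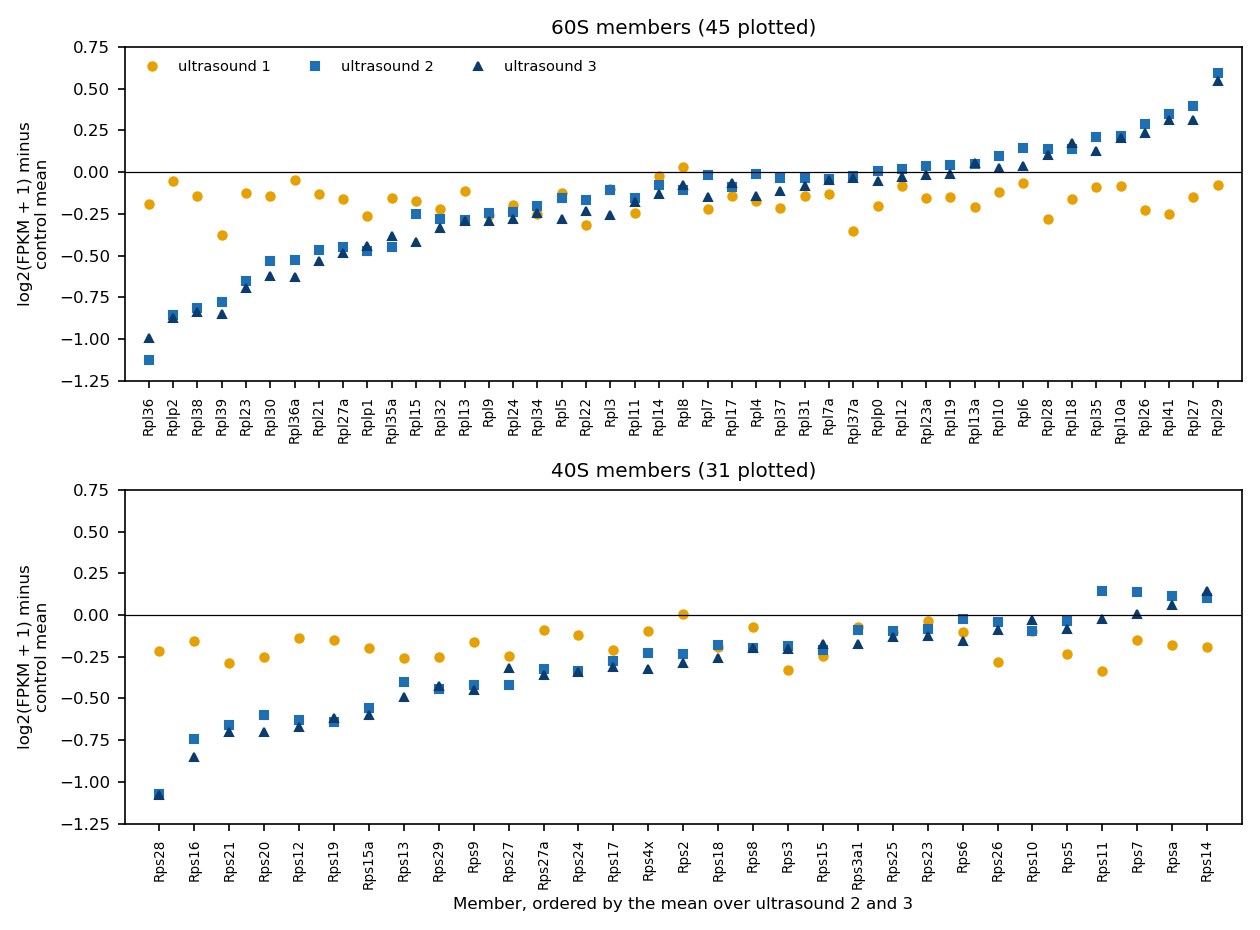
Difference of log2(FPKM + 1) from the control mean (y axis) for the plotted canonical members (x axis, ordered by the mean over ultrasound 2 and 3), large subunit above and small subunit below, with a circle, square and triangle for ultrasound 1, 2 and 3. Circles stay between -0.37 and 0.03, whereas squares and triangles lie close together and run from -1.12 to 0.60.

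Without ultrasound 1 the test gave a different count. Of the 86 members, 39 were lower and 9 higher at a limma adjusted p under 0.05, where 19.7% of all genes were lower and 34.1% higher (53.7% in all). The small subunit gave 17 lower and 0 higher of 31, and the large subunit 17 lower and 6 higher of 46. Among the 9 that rose were Rpl10a, Rpl26, Rpl27, Rpl29, Rpl37rt, Rpl41, Rpl7l1 and Rps19bp1, named because of this result. Single genes whose limma adjusted p is given below without ultrasound 1 all passed in that fit, as 53.7% of all genes did. Other named members did not, among them Rplp0, Rpl7, Rpl11 and Rpl22 with limma adjusted p of 0.783, 0.343, 0.160 and 0.0547. Ultrasound 1 against the controls, in the fit with a term for ultrasound 2 and 3, sets 1 library against 3 and takes its spread from the other 5. It passed 0 of 86 members, where 1.41% of all genes passed, 0.441% lower and 0.967% higher, and this count does not show that ultrasound 1 was level. An unadjusted p under 0.05 was reached there by 14 members lower and 1 higher, where 5.93% and 16.1% of all genes did so (22.1% in all).

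The most negative canonical differences were those of Rps28 and Rpl36. Rps28, a small protein near the mRNA exit of the small subunit, was at 1839, 1452 and 1619 FPKM in the controls and at 1402, 773 and 772 FPKM in ultrasound 1 to 3. All ultrasound values were below all controls, with ultrasound 1 the closest to them. The log2 difference was -0.79 with standard error 0.24 and limma adjusted p 0.0904. Rpl36, a large subunit protein, was at 627, 509 and 573 FPKM in controls and 498, 260 and 285 FPKM in ultrasound libraries, with a difference of -0.77, standard error 0.25 and limma adjusted p 0.0970. Without ultrasound 1 the differences were -1.07 and -1.06, with limma adjusted p of 0.000486 and 0.000478.

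Rpl39, a short protein that lines the exit tunnel for the growing peptide, came closest to the threshold. Its levels were 1387, 1114 and 1384 FPKM in controls and 994, 752 and 714 FPKM in ultrasound libraries. Ultrasound 1 was low here as well, at 0.37 below the control mean on the log2 scale, the lowest canonical value of that library. The difference was -0.67 with standard error 0.16 (limma adjusted p 0.0502). Without ultrasound 1 it was -0.81 (limma adjusted p 0.00123).

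The proteins of the stalk, which recruits the factors that drive translation, were not alike. Rplp1 was at 4113, 3745 and 4023 FPKM in controls and 3295, 2855 and 2907 FPKM in ultrasound libraries, all below the controls (difference -0.39, standard error 0.094, limma adjusted p 0.0507). Rplp2, its partner, was at 2943, 2485 and 2525 FPKM in controls and at 2548, 1458 and 1441 FPKM in ultrasound 1 to 3. Ultrasound 1 thus lay among the controls and ultrasound 2 and 3 well below them (difference -0.60, standard error 0.23, limma adjusted p 0.137). The Rplp2 difference without ultrasound 1 was -0.87 (limma adjusted p 0.0006). Rplp0, the base of the stalk, was at 2737, 2676 and 2863 FPKM in controls and 2400, 2770 and 2654 FPKM in ultrasound libraries, which overlapped (difference -0.08, standard error 0.09).

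Genes for proteins with known roles in ribosome assembly did not differ alike. Rpl5 and Rpl11 bind the 5S RNA and, when free, the p53 regulator Mdm2. Rpl5 was at 1129, 1018 and 1094 FPKM in controls and 991, 970 and 889 FPKM in ultrasound libraries, and Rpl11 at 716, 593 and 629 FPKM against 544, 578 and 570 FPKM. All ultrasound values were below the controls for both, with differences of -0.19 and -0.19 and limma adjusted p of 0.201 and 0.225. Rps19, whose loss causes Diamond-Blackfan anaemia in people, was at 1307, 1128 and 1418 FPKM in controls and 1154, 821 and 832 FPKM in ultrasound libraries. Ultrasound 1 lay inside the control range and ultrasound 2 and 3 below it (difference -0.47, standard error 0.16, limma adjusted p 0.112). The Rps19 difference without ultrasound 1 was -0.63 (limma adjusted p 0.00245).

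Several core genes had small differences by limma. Rps6, the small subunit protein phosphorylated by S6 kinase, was at 1359, 1326 and 1459 FPKM in controls and 1286, 1359 and 1240 FPKM in ultrasound libraries, a difference of -0.09 with standard error 0.086. Ultrasound 1 and 3 lay below every control for Rps6, and the authors' deposited DESeq2 values put it at -0.22 (q 0.0972). Rpsa, Rps14 and Rpl10 differed by -0.00, 0.02 and 0.00 with standard errors of 0.10, 0.11 and 0.09. Signs this close to 0 moved with the scaling: Rps14 and Rpl10 were at -0.11 and -0.12 with median-of-ratios size factors. Ultrasound 1 was the lowest library for Rpsa, at 1690 FPKM against 1872 to 1950 FPKM in controls and 2071 and 1998 FPKM in ultrasound 2 and 3. Rps14 had the same order, at 1416 FPKM in ultrasound 1, 1570 to 1671 FPKM in controls and 1738 and 1789 FPKM in ultrasound 2 and 3.

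Rpl29, of the large subunit, had the most positive canonical difference, and Rpl27, of the same subunit, was picked after its values were seen. Rpl29 was at 348, 364 and 371 FPKM in controls and 342, 546 and 528 FPKM in ultrasound 1 to 3. Rpl27 was at 567, 527 and 586 FPKM in controls and 505, 736 and 695 FPKM in ultrasound 1 to 3. Ultrasound 1 was the lowest library for both genes and ultrasound 2 and 3 the highest. The differences of 0.35 and 0.19 had standard errors of 0.18 and 0.15 and limma adjusted p of 0.226 and 0.415. Without ultrasound 1 they were 0.57 and 0.35, with limma adjusted p of 0.000805 and 0.00694.

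**Figure D3:**
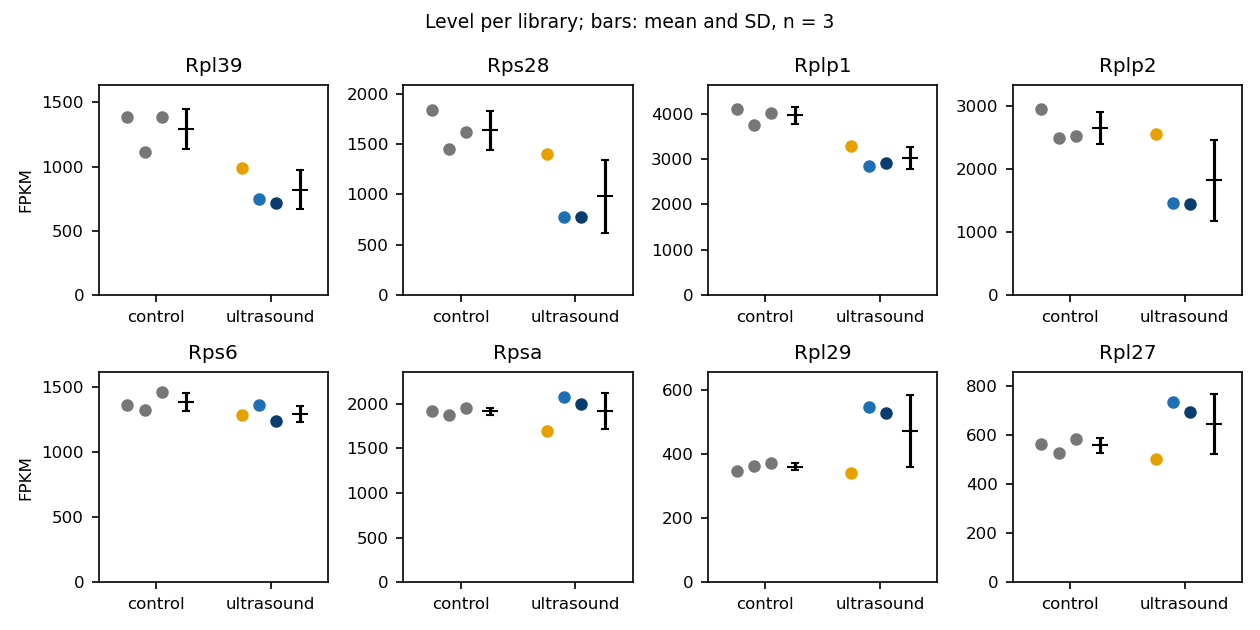
FPKM (y axis, from 0) of 8 canonical members in controls (grey points) and ultrasound libraries (orange for ultrasound 1, light and dark blue for ultrasound 2 and 3), with mean and SD (bars, n = 3) beside each group. Rps28 and Rplp2 show ultrasound 2 and 3 at no more than 773 and 1458 FPKM, apart from ultrasound 1, whereas Rpl29 and Rpl27 show the same pair above all other libraries.

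Further members were low in all 3 ultrasound libraries and were picked after their values were seen. Rpl38, which has been tied to selective translation of Hox mRNAs, was at 689, 618 and 690 FPKM in controls and 601, 378 and 371 FPKM in ultrasound libraries (difference -0.60, limma adjusted p 0.0991). Rps21, a small subunit protein, was at 897, 777 and 948 FPKM in controls and 715, 551 and 536 FPKM in ultrasound libraries (difference -0.55, limma adjusted p 0.0613). Rps20, also of the small subunit, was at 408, 354 and 392 FPKM against 323, 253 and 235 FPKM (difference -0.52, limma adjusted p 0.0661). For these 3 genes the ultrasound values were all below the controls, and ultrasound 1 was the highest of the ultrasound values.

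Several paralogs and copies stood further from the controls than the canonical genes. Rpl22l1 encodes a paralog of Rpl22, a protein that is needed in T cell development and represses Rpl22l1. Rpl22l1 was at 319, 268 and 331 FPKM in controls and 250, 94.4 and 74.1 FPKM in ultrasound 1 to 3. Its difference was the most negative of all tested members (-1.33, standard error 0.42, limma adjusted p 0.0959). Without ultrasound 1 it was -1.85 (limma adjusted p 0.000321). Rpl22 itself was at 205, 185 and 189 FPKM in controls and 155, 172 and 164 FPKM in ultrasound libraries (difference -0.24, standard error 0.09, limma adjusted p 0.134). As a percentage of Rpl22, Rpl22l1 stood at 156%, 145% and 175% in controls and 162% in ultrasound 1, but at 54.9% and 45.2% in ultrasound 2 and 3. So the order of the pair was the reverse in the last 2 libraries.

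Copies with nearly the same sequence share reads with their parent gene, and their values depend on how those reads were assigned, so they are uncertain. Rpl6l was at 171, 124 and 158 FPKM in controls and 139, 51.4 and 52.0 FPKM in ultrasound libraries (difference -1.05, limma adjusted p 0.123). Relative to Rpl6 this was 15.8% to 21.5% in controls, 18.1% in ultrasound 1 and 5.77% and 6.31% in ultrasound 2 and 3. Rpl32l, at 2.46 to 3.97 FPKM in controls, was at 3.26, 0.631 and 1.11 FPKM in ultrasound libraries, and Rps27rt at 103 to 143 FPKM was at 120, 71.1 and 74.0 FPKM. Rpl37rt was at 92.2, 82.6 and 95.4 FPKM in controls and 84.0, 145 and 134 FPKM in ultrasound libraries (difference 0.39, limma adjusted p 0.236), and relative to Rpl37 it was 14.3% to 15.5% in controls and 16.0%, 24.5% and 23.8% in ultrasound libraries. In all 4 the ultrasound 1 value lay inside the control range.

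Symbols carrying -ps, which the rule left out, were low in ultrasound 2 and 3 too: in 8 of the 9 both values lay below every control, while ultrasound 1 did so in 1. Of the 10655 genes tested, 2922 had both values below every control, and in 23.1% ultrasound 1 lay there. Some of the -ps symbols rest on few reads, so their part in this count is uncertain. Rps12-ps10 had 3, 3 and 7 reads in controls and 1 and 0 in ultrasound 2 and 3. A pair of the -ps symbols, picked after their values were seen, shows the low values in ultrasound 2 and 3. Rps15a-ps5 was at 6.71, 4.28 and 7.58 FPKM in controls, 4.51 FPKM in ultrasound 1, and 0.348 and 0.399 FPKM in ultrasound 2 and 3. Rpl34-ps1 was at 59.9, 67.8 and 76.3 FPKM in controls, 67.3 FPKM in ultrasound 1, and 43.0 and 40.3 FPKM in ultrasound 2 and 3.

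The next pairs are those of Rpl36a and Rps27. Rpl36al, a retrogene of Rpl36a, was at 333 to 337 FPKM in controls and 319, 280 and 280 FPKM in ultrasound libraries (difference -0.20, limma adjusted p 0.188). Rpl36a was at 1204, 1017 and 1071 FPKM in controls and 1060, 761 and 707 FPKM in ultrasound libraries (difference -0.40, limma adjusted p 0.157), so Rpl36al amounted to 28.0% to 32.8% of it in controls, 30.1% in ultrasound 1 and 36.8% and 39.6% in ultrasound 2 and 3. Rps27l, a paralog of Rps27 that p53 induces, was at 6.55, 4.82 and 3.75 FPKM in controls and 6.94, 7.64 and 7.59 FPKM in ultrasound libraries, all above the controls (difference 0.50, standard error 0.17, limma adjusted p 0.113). Rps27 was at 4071, 3078 and 3679 FPKM in controls and 3023, 2684 and 2873 FPKM in ultrasound libraries, all below (difference -0.33, standard error 0.12, limma adjusted p 0.128). Rps19bp1 was at 9.73 to 11.4 FPKM in controls and 14.3, 13.2 and 12.2 FPKM in ultrasound libraries (difference 0.33, standard error 0.10, limma adjusted p 0.0915).

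The pair list holds 5 further tested genes. Rpl7l1, a biogenesis factor related to Rpl7, was at 25.6, 24.7 and 26.6 FPKM in controls and 26.3, 33.1 and 31.1 FPKM in ultrasound libraries, a difference of 0.22. Rpl7 differed by -0.13 and Rpl3 by -0.15, with all ultrasound values below the controls for both. Rps4x, the X-linked small subunit gene, differed by -0.22 and Rps27a, a fusion of ubiquitin to a small subunit protein, by -0.26. The limma adjusted p of these 5 genes ran from 0.161 for Rps4x to 0.330 for Rpl7. Rpl10l and Rps4l were not analysed here.

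**Figure D4:**
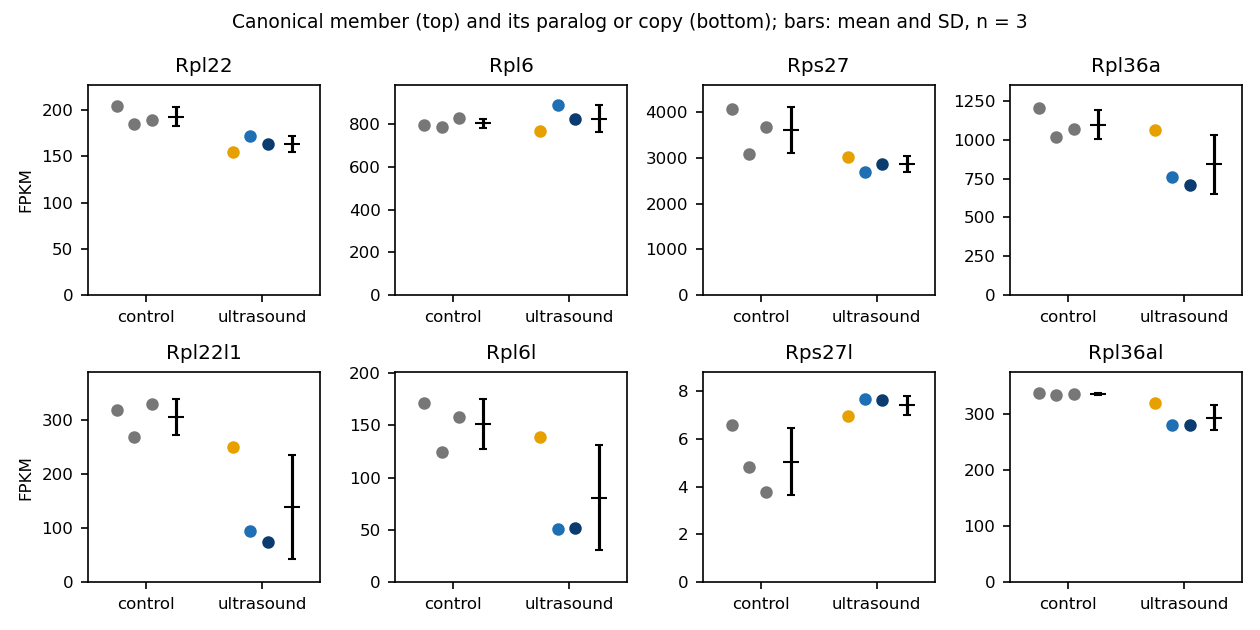
FPKM (y axis, from 0) of 4 canonical members (top row) and their paralog or copy (bottom row) in controls (grey) and ultrasound 1 (orange), 2 and 3 (blues), with mean and SD (bars, n = 3). Rpl22l1 and Rpl6l are at 94.4 FPKM or less in ultrasound 2 and 3 while Rpl22 and Rpl6 stay within 155 to 205 and 767 to 891 FPKM.

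The 3 members below the filter were Rpl39l, Rpl3l and Rps23rg1. Rpl39l, a paralog of Rpl39 used in the testis, had 12, 6 and 4 reads in controls and 23, 19 and 5 in ultrasound libraries. Rpl3l, the paralog of Rpl3 in striated muscle, had 3, 1 and 0 reads in controls and 7, 4 and 12 in ultrasound libraries. Rps23rg1, a retrogene, had 10, 4 and 4 reads in controls and 1, 2 and 2 in ultrasound libraries. At so few reads no difference in level is read from them.

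Transcript properties had weak relations to the differences of the canonical members. The correlation across the 77 genes was at most 0.216 in size for gene model length, transcript length and GC content of the transcript, in any ultrasound library and by Pearson or Spearman. These genes share their libraries and are not independent, so no p is given. Over all genes tested, GC content had a Spearman correlation with the difference of 0.415 in ultrasound 2 and 0.479 in ultrasound 3, and of -0.00 in ultrasound 1. Among the canonical members the same value was 0.112, 0.20 and 0.053 in that order of libraries. With the genes divided in 3 by gene model length, from short to long, the medians were -0.28, -0.20 and -0.10 in ultrasound 2, -0.31, -0.18 and -0.17 in ultrasound 3, and -0.22, -0.15 and -0.15 in ultrasound 1. By GC content, from low to high, they were -0.29, -0.15 and -0.13 in ultrasound 3 and -0.21, -0.10 and -0.14 in ultrasound 2. All ultrasound values lay below the controls for 14 of 26, 9 of 25 and 9 of 26 genes, where 8.96% of all genes tested did so. The 29 canonical members with CTTTC near the start had a median difference of -0.14, and the 28 without it had -0.20. All ultrasound values lay below the controls for 10 and 14 of them, to be set beside the same 8.96% of all genes tested.

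Genes that work with the ribosome were compared through lists chosen by function. Of the fused or associated genes, Fau, a fusion of a ubiquitin-like protein to a small subunit protein, was at 1070, 992 and 1024 FPKM in controls and 909, 851 and 907 FPKM in ultrasound libraries, all below. Rack1, a scaffold on the small subunit, overlapped between groups at 1655 to 1837 FPKM in controls and 1585 to 1743 FPKM in ultrasound libraries. Neither passed the limma test, with adjusted p of 0.142 for Fau and 0.591 for Rack1.

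The 8 elongation and termination factors were all below 0, with a median of -0.20. By limma 0 passed, 1 had an unadjusted p under 0.05, and 3 had a q under 0.05 in the authors' deposited table. The latter counts are of lower values, where the shares over all genes were 8.57% and 4.98%. Eef1a1, which delivers tRNA to the ribosome, was at 8768 to 9167 FPKM in controls and 8410 to 9457 FPKM in ultrasound libraries, a difference of -0.03. Eef1b2, which reloads it with GTP, was at 527, 472 and 517 FPKM in controls and 446, 359 and 325 FPKM in ultrasound libraries (difference -0.43, limma adjusted p 0.0899). Eef1d and Eef1g, of the same complex, differed by -0.18 and -0.16 with all ultrasound values below the controls. Eef2, which moves the ribosome along, differed by -0.06. Eif5a, Etf1 and Gspt1 differed by -0.22, -0.48 and -0.33 and were low in ultrasound 2 and 3 but not in ultrasound 1, so the groups overlapped.

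Of 29 initiation factors 1 fell: Eif1, which guards start codon choice, was at 505, 545 and 519 FPKM in controls and 425, 326 and 336 FPKM in ultrasound libraries (difference -0.54, standard error 0.12, limma adjusted p 0.0464). This 1 of 29 compares with 1.56% of all genes called lower. In the list 19 were below 0, 9 had an unadjusted p under 0.05 and 9 a q under 0.05 in the authors' deposited table. All of these were lower, where the shares over all genes were 8.57% and 4.98%. Among 16 other mRNAs of the TOP class, which overlap the lists above, all were below 0 with a median of -0.30, but 0 passed. All ultrasound values lay below the controls for 11 of these mRNAs, where 8.96% of all genes tested did so. Of 38 ribosome biogenesis factors 26 were below 0, with a median of -0.11, and 0 passed. In ultrasound 1 their median was 0.09, against -0.17 and -0.24 in ultrasound 2 and 3. By limma 9 of the TOP list had an unadjusted p under 0.05 and a lower value, and of the biogenesis list 6 a lower and 2 a higher one. Over all genes 8.57% were lower and 22.6% higher at that threshold. The authors' deposited table gives a q under 0.05 and a lower value to 12 and 3 genes of these lists, and to 4.98% of all its genes.

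The mTORC1 and TOP regulator list (14 genes) had a median of 0.11, which was -0.01 with median-of-ratios size factors. In this list 1 gene rose, where 6.55% of all genes were called higher. Eif4ebp1, the translation repressor that mTORC1 phosphorylates, was at 7.31, 7.22 and 6.36 FPKM in controls and 16.0, 16.7 and 26.9 FPKM in ultrasound libraries (difference 1.36, standard error 0.20, limma adjusted p 0.0304). Of 12 rescue and quality control factors 0 passed limma, and the median was 0.02 (-0.10 with median-of-ratios size factors). A lower value was at an unadjusted p under 0.05 in 1 and at a q under 0.05 in the authors' deposited table in 1. Over all genes those shares were 8.57% and 4.98%. The 78 mitochondrial ribosomal protein genes, which serve the separate ribosome of the mitochondrion, had a median of 0.15 with 64 above 0, and Mrpl38 and Mrpl55 rose. These 2 of 78 compare with 6.55% of all genes called higher, and 15 genes of the list had an unadjusted p under 0.05 and a higher value and 2 a lower one. The authors' deposited table gives a q under 0.05 to 3 lower and 1 higher. Mrpl38 differed by 0.48 and Mrpl55 by 0.69, with limma adjusted p of 0.0469 and 0.0429. With median-of-ratios size factors their list's median was 0.04, and 0 passed. These 3 rises and the fall of Eif1 were lost without control 2, control 3, ultrasound 2 or ultrasound 3, where 0 genes of the lists passed, and without control 1 only 1 rise passed.

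**Figure D5:**
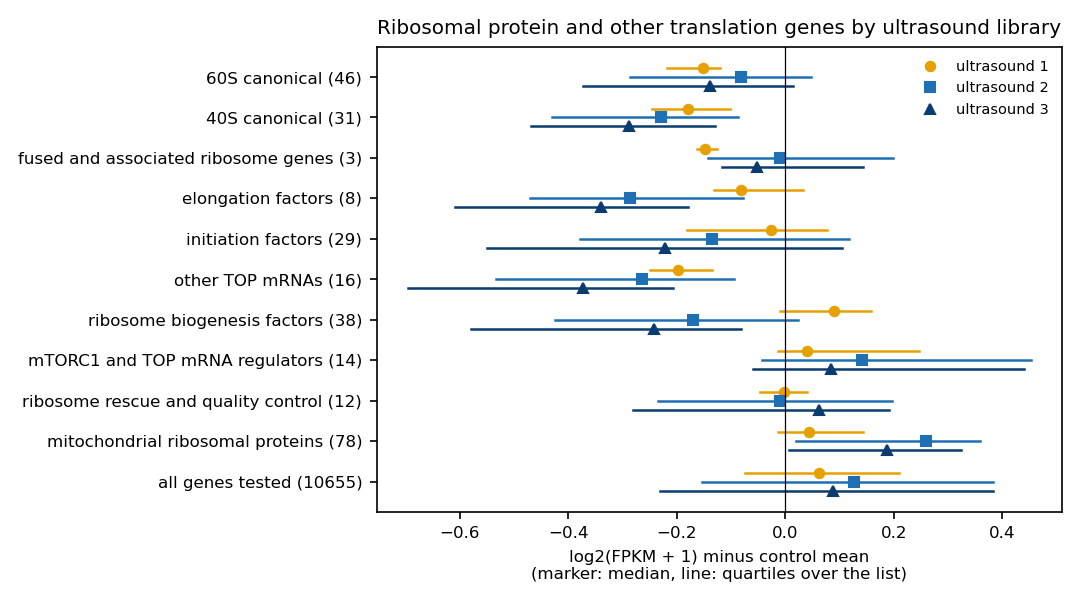
Median (marker) and quartiles (line) of the difference of log2(FPKM + 1) from the control mean (x axis) for each list (y axis, with its number of tested genes) in ultrasound 1 (orange circle), 2 (light square) and 3 (dark triangle). The medians of both subunits and the TOP list lie below 0 in all 3 libraries, and that of mitochondrial ribosomal proteins above 0. The biogenesis median is at 0.09 in ultrasound 1 and below 0 in the others. Quartile lines of the large subunit cross 0 in ultrasound 2 and 3, and that of mitochondrial ribosomal proteins does so in ultrasound 1.

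Markers of other cell types moved with the groups in these sorted cells. The 13 macrophage and monocyte markers summed to 548 to 1139 FPKM in controls and 2325 to 3804 FPKM in ultrasound libraries, and all 13 were above 0 in fitted difference. Of them 6 rose, among them Lyz2 and Csf1r, and 10 had all ultrasound values above the controls, where 6.55% and 25.9% of all genes did so. The 10 neutrophil markers summed to 189 to 576 FPKM in controls and to 2357, 642 and 677 FPKM in ultrasound 1 to 3, and 3 rose. The 10 B cell markers in the table summed to 227 to 352 FPKM in controls, 171 FPKM in ultrasound 1, and 905 and 785 FPKM in ultrasound 2 and 3. By limma 0 of them passed and 0 had an unadjusted p under 0.05. Without ultrasound 1 all 10 rose, where 34.1% of all genes did so. The 8 erythroid markers summed to 83.3 to 133 FPKM in controls and 112, 55.5 and 59.6 FPKM in ultrasound libraries. The 9 T cell markers in the table summed to 2440 to 2583 FPKM in controls and 2097, 2759 and 2521 FPKM in ultrasound libraries. In ultrasound 1 all 9 lay below every control, where 23.1% of all genes did so, and their median difference was -0.26. In ultrasound 2, 1 lay below and 4 above every control, against 29.6% and 53.2% of all genes. In ultrasound 3, 4 lay below and 3 above, against 34.5% and 49.6%. No marker of these lists was at 0 in any library. B cell markers divided ultrasound 1 from ultrasound 2 and 3 by level, with median differences from the control mean of -0.57, 1.62 and 1.51. The medians of the members were alike, at -0.15, -0.16 and -0.20, and it was their spread that differed, with SDs of 0.124, 0.438 and 0.429. The part of the cell type markers in the ribosomal protein values was not tested.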

How the data were processed

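Gene-level RNA-seq values of 6 libraries (3 control, 3 ultrasound) were used, grouped by the titles in the labels. The submitters' processing notes name HISAT2, HTSeq, DESeq2, R 3.2.0 and mm10; strand setting and treatment of shared reads are not given in the sources used here. The deposited FPKM values are per gene and library. The signal columns, means of normalized counts over all samples and each group, the fold change as a ratio of those means, its log2, and the p-value and q-value are the authors' deposited DESeq2 output, per the file headers. A second deposited table, filtered from the first, was not used.

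FPKM and group means together gave whole reads: all of 64013 values between 1 and 1000 reads (100%) lay within 0.05 of a whole number. Reads carry no molecular identifiers. Limma 3.58.1 in R 4.3.3 (trend, robust, two-sided, Benjamini-Hochberg) was run on log2(FPKM + 1) for the 10655 genes that reached 1 FPKM in 3 or more libraries, at 0.05. Differences on this scale understate the change of low genes. Such a fit on simulated fold-2 changes between ultrasound and control recovered 99.5% of 200 genes with 15 false calls at a dispersion of 0.01 (10688 genes), and 59.5% with 7 at 0.05 (10701 genes). The simulated libraries of a group were drawn alike, whereas in these data ultrasound 1 stood apart from ultrasound 2 and 3. The recovered shares therefore do not carry over to the test on these data. Recovered reads were tested with voom as an alternative. Other alternatives covered scaling, pseudocount, filters, the robust option, a replicate block, a term for ultrasound 2 and 3, the authors' values and each library left out.

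Members and lists were chosen with earlier results of these data known. Named members are the assembly core, paralog pairs, the 5 largest rises and falls, the 3 highest and the lowest by mean FPKM and those below the filter. Of other lists, fused genes, elongation factors and up to 4 genes past the threshold are named, and other names are marked as chosen later. Values of 2 genes that this rule names are not reported here. Sequences are RefSeq's (GRCm38.p6). Tables and figures were made with pandas 2.3.3, numpy 2.4.6 and matplotlib 3.10.9 in Python 3.11.15.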

Additional observations from a re-analysis of the deposited data

Results flagged for a closer look

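Rpl3l, a member below the filter on low values and so in no test, had a value in each ultrasound library above the highest control. Its mean was 0.113 FPKM in ultrasound libraries and 0.0206 FPKM in controls, from 7, 4 and 12 reads against 3, 1 and 0, a difference that rests on few reads.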

How the results depend on the processing

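The count of members past the threshold, 0 in the analysis as reported, was 2 with median-of-ratios size factors, 2 when scaled to the other genes, 2 with voom, 3 with upper-quartile factors and 39 in the authors' deposited table, and ran from 0 to 48 with 1 library left out (48 without ultrasound 1, 0 without any other). Over all genes the 864 became 468 with median-of-ratios size factors, 0 with no filter (4216 at an unadjusted p under 0.05), 150 when ultrasound 2 and 3 had a term of their own, 2179 in the authors' deposited table, and 0 to 5727 with 1 library left out (567 without control 1, 5727 without ultrasound 1, 0 without any other). The 4 genes of the companion lists became 0 with no filter, 0 with that term, 29 in the authors' deposited table and 0 to 105 with 1 library left out (105 without ultrasound 1, 1 without control 1). The difference in share, -3.06 percentage points, was -1.06 as a share of reads and -3.61 to -2.72 with 1 library left out. The planned denominator without immunoglobulin genes left out mitochondrial and hemoglobin genes only.

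The same-numbered libraries did not deviate together, with correlations of -0.041, 0.051 and 0.058, so the numbers were not taken as pairs. With the replicate number as a block, 0 genes, 0 members and 0 genes of the companion lists passed limma's adjusted threshold, while 3249 genes and 27 members had an unadjusted p under 0.05.

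For the 30 named members, 509 values were computed over 17 alternatives: 445 kept direction and side of the threshold, 42 passed it newly, and 22 changed sign, in 5 genes. Rpl10, near 0, was -0.12 with median-of-ratios, -0.11 with upper-quartile, -0.045 with scaling to other genes, -0.12 with the term for ultrasound 2 and 3 and -0.12 in the authors' deposited table, and -0.048 to 0.061 with 1 library left out. Rps14 was -0.11, -0.095, -0.028, -0.19 and -0.10 under the same settings in that order, and -0.045 to 0.12 with 1 library left out. Rpsa was 0.0023 with voom and -0.058 to 0.088 with 1 library left out. With the term, Rpl29 and Rpl37rt were -0.079 and -0.097. The cause of these changes was not tested.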
